A study of Mus musculus with 30 samples.

Results

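SB203580, an inhibitor of the p38 stress-activated protein kinases (p38 SAPK), was compared with its absence in wild type mouse embryonic fibroblasts (MEFs) across all the stresses they received. Of the 30 arrays of the series, 20 were used: 10 of MEFs given SB203580 and a stress, and 10 of MEFs given the same stress alone, which formed 10 pairs matched by stress and replicate number. The stresses were anisomycin (25 ng/ml, 45 min), TNFα (100 ng/ml, 45 min) and NaCl (100 mM) for 45 min, 2 h or 8 h, with 2 pairs each. The protocol gives SB203580 at 10 μM from 30 min before the stress, whereas the sample titles give 10 mM and 2 h. The MEFs were an immortalised line of wild type genotype, and the replicates came from separate experiments. Each array held treated cells in the dye Cy5 against 1 pool of 2 untreated wild type MEF samples in Cy3, with no dye swap. The effect of SB203580 on a gene was the log2 ratio to the pool with SB203580 and stress minus that with the stress alone, so that a difference of -1 means an mRNA level at 50% of the level with the stress alone. The arrays of SB203580 alone and of untreated p38α-/- MEFs entered no test and are given only as levels.

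The p38 SAPKs are kinases that cells switch on under osmotic shock, inflammatory cytokines and translational stress. They act on gene expression through transcription factors, through the downstream kinases MSK and MK2, and through the stability of mRNAs that carry AU-rich elements. Anisomycin inhibits the ribosome, TNFα is an inflammatory cytokine, and added NaCl draws water out of cells. At the anisomycin dose used, protein synthesis was not blocked in full, according to the authors. SB203580 occupies the ATP pocket of p38α and p38β.

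For the 5 genes with the largest mean decrease, the sequence before the start of transcription is shown, because genes that moved together can be searched there for shared motifs. The windows are the 250 bases upstream of the start in RefSeq (build GRCm38.p6), written 5′ to 3′ on the strand of the gene, with motif matches in capitals. The Ptgs2 window lies on chr1:150099781-150100030 (plus strand), that of Edn1 on chr13:42301226-42301475 (plus), that of Adamts1 on chr16:85803114-85803363 (minus), that of Ccl20 on chr1:83116516-83116765 (plus) and that of Zfp36l1 on chr12:80113014-80113263 (minus). In Ptgs2 and Adamts1 the capitals mark GCGTG, the core bound by the aryl hydrocarbon receptor, at -98 to -94 and at -158 to -154 from the start, and in Ccl20 its reverse complement CACGC at -61 to -57. In Zfp36l1 they mark TGATTCA at -129 to -123, a match to TGANTCA, the loose form of the AP-1 motif searched here (N is any base). The Edn1 window held none of the motifs searched.
Ptgs2: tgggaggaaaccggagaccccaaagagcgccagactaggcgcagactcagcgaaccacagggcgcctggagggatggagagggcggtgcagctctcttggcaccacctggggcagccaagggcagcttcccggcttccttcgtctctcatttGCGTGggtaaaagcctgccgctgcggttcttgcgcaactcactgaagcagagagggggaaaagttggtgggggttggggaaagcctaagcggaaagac
Edn1: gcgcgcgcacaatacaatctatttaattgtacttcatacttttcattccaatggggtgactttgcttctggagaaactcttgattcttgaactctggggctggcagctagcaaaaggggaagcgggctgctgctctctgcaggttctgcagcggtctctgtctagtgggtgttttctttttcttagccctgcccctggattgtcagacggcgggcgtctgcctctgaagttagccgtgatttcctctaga
Adamts1: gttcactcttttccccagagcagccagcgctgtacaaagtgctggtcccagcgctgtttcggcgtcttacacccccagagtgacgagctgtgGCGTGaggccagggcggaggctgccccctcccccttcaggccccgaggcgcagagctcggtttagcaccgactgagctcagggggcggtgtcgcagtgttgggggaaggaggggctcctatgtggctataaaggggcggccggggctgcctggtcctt
Ccl20: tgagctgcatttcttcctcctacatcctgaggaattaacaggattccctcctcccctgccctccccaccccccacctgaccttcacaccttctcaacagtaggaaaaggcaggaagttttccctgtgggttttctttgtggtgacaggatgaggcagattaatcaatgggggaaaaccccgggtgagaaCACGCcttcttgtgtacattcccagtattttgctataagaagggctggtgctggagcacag
Zfp36l1: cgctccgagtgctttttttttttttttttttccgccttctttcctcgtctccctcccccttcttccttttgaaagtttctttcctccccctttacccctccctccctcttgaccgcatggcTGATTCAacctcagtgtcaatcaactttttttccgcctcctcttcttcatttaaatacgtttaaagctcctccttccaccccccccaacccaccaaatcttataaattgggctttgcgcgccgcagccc
Of the 21 genes that passed the test below, 10 had such a window. Genes with several starts, such as Bdnf and Foxa2, were counted as holding a motif if any of their windows did, and the share among all 26994 genes of the RefSeq table was counted the same way. Read on both strands, TGANTCA was found for 2 of the 10 genes, Zfp36l1 and Bdnf, and for 7.82% of all genes (6.75% of all 32817 windows). Both matches, TGATTCA and TGAATCA, lack the C or G in the middle of the AP-1 consensus. GCGTG was found for 5 of the 10 and for 30.8% of all genes (28.1% of windows). Bdnf has 7 windows and Foxa2 3, which gives both more chances of a match than a gene with 1. The cyclic AMP response element TGACGTCA was found for none of the 10 and for 1.77% of all genes, the CArG box of serum response factor for none and for 1.63%, and the NF-κB motif for none and for 0.415%.

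Over the 10 pairs, MEFs given SB203580 held less mRNA of a small set of genes, with Ptgs2, Edn1, Adamts1, Ccl20 and Zfp36l1 at 44% to 51.5% of the level with stress alone. Of 14771 genes tested, 19 were lower with SB203580 (0.129%) and 2 were higher (0.0135%) at an adjusted p under 0.05 by limma. The lower genes encode the prostaglandin synthase Ptgs2, endothelin (Edn1), the chemokine Ccl20, the protease Adamts1 and the neurotrophin Bdnf. They also encode the mRNA decay factor Zfp36l1, the transcription factors Myc, Mycn and Foxa2, the nuclear IκB protein Nfkbiz, the MAP kinase phosphatase Dusp4 and the pseudokinase Trib1. The 19 genes were lower in every pair in which they were measured. At an unadjusted p under 0.05, 647 genes were lower (4.38%) and 999 were higher (6.76%). The mean difference over all genes tested had a median of 0.014, and 44% of the means lay below 0. Of 10573 genes measured in all 10 pairs, 45 were lower in every pair (0.426%) and 35 were higher in every pair (0.331%), and 19 of both kinds together passed the test.

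**Figure D1:**
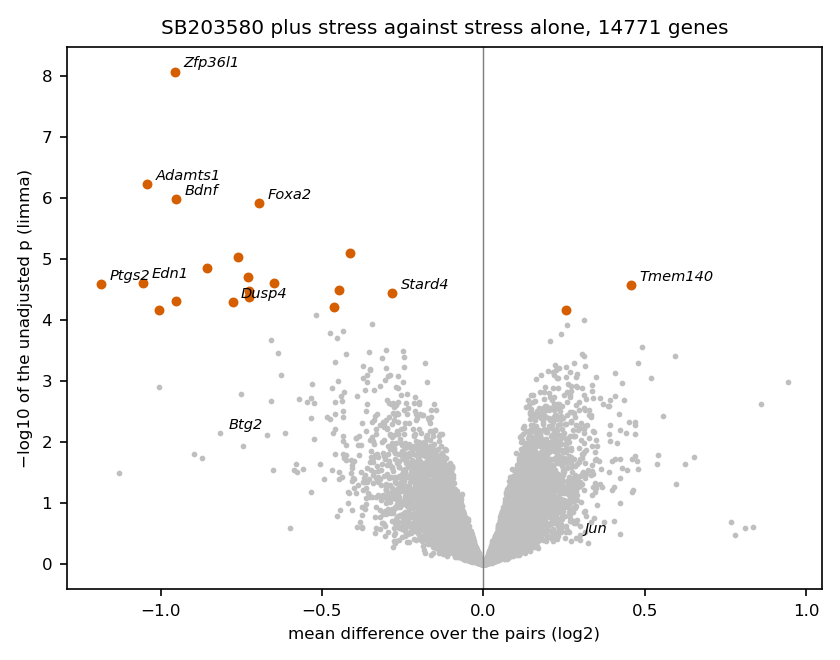
Mean difference over the pairs (x axis, log2, SB203580 plus stress minus stress alone) against -log10 of the limma p-value (y axis) for the 14771 genes tested, with the genes at an adjusted p under 0.05 marked. The 19 lower genes reach -1.18 (Ptgs2), whereas the 2 higher genes stay at 0.26 and 0.46.

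The calls depended on single pairs. Leaving out 1 pair kept between 4 and 14 of the 21 calls, and Zfp36l1, Adamts1, Bdnf and Foxa2 kept theirs whichever pair was left out. With the 2 pairs of a stress averaged to 1 value, no gene passed (584 were lower at an unadjusted p under 0.05). All first replicates of the wild type MEFs were scanned in 1 batch and all their second replicates in another. For Zfp36l1, Ptgs2, Bdnf, Trib1, Myc and Tmem140 alone, mean differences are therefore also given for each replicate number. As the arrays hold bulk RNA, fewer cells of a type and less RNA per cell cannot be told apart. The 10 fibroblast markers examined were well above background on all 20 arrays, and 0 of the 7 that were tested passed the limma test, also at an unadjusted p under 0.05. Also above background on all 20 were 8 of 8 macrophage and leukocyte, 7 of 7 epithelial and 5 of 5 muscle markers. So were 5 of 6 endothelial and 4 of 5 neural markers, so this measure does not tell cell types apart. Spots marked as outliers made up 7.07 to 44.8% of an array and were dropped, with a median of 10.4% in replicate 1 and 29.9% in replicate 2. Their part in the results was tested only by keeping them, which gave 20 of the 21 calls again.

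**Figure D2:**
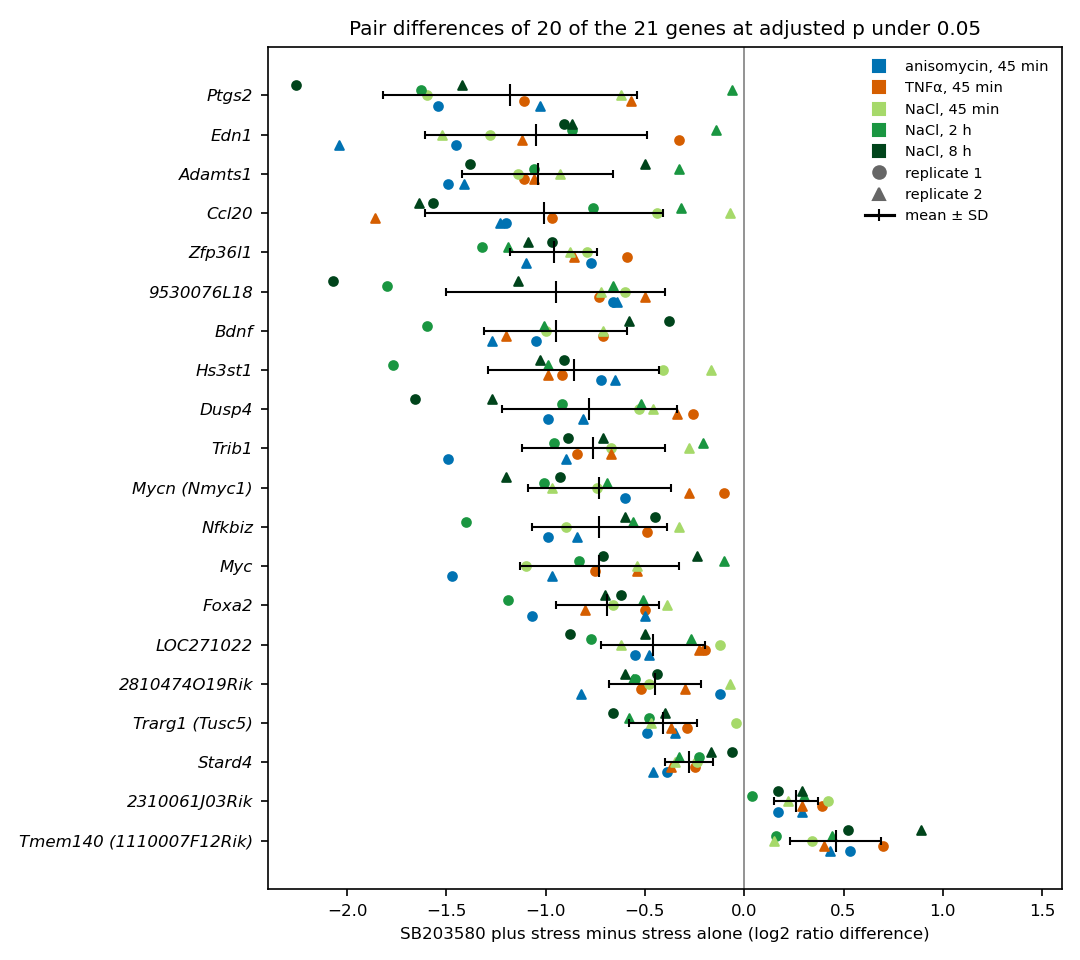
Difference of each pair (x axis, log2, SB203580 plus stress minus stress alone) for 20 of the 21 genes at an adjusted p under 0.05, with colour for the stress, circles for replicate 1, triangles for replicate 2, and the bar for the mean ± SD. No pair of the 18 lower genes shown lies above 0, and Zfp36l1 spans -1.32 to -0.59 whereas Ptgs2 spans -2.26 to -0.06.

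Zfp36l1 gave the smallest p-value. It encodes a zinc finger protein that binds AU-rich elements and promotes decay of the mRNA. Its log2 ratio to the pool with stress alone ran from 0.67 (NaCl 8 h) to 2.31 (NaCl 2 h), with a median of 1.52. With SB203580 and stress it ran from -0.30 (NaCl 8 h) to 1.12 (NaCl 2 h), with a median of 0.58. The groups overlapped, while within each pair the level fell by 0.59 or more. The mean difference was -0.96 ± 0.22 (SD, n = 10 pairs, limma adjusted p = 0.000124), which left 51.5% of the level with stress alone, and it was -0.89 in replicate 1 and -1.02 in replicate 2. Zfp36, the better known family member tristetraprolin, had a mean of similar size, -1.01 ± 0.80 (SD, n = 9 pairs), and was lower in 9 of 9 pairs. Its pairs ran from -2.63 with anisomycin to -0.03 with NaCl at 8 h, and it did not pass the test (limma, adjusted p = 0.194). The third member tested, Zfp36l2, had stress means between -0.18 (NaCl 2 h) and 0.34 (NaCl 8 h).

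**Figure D3:**
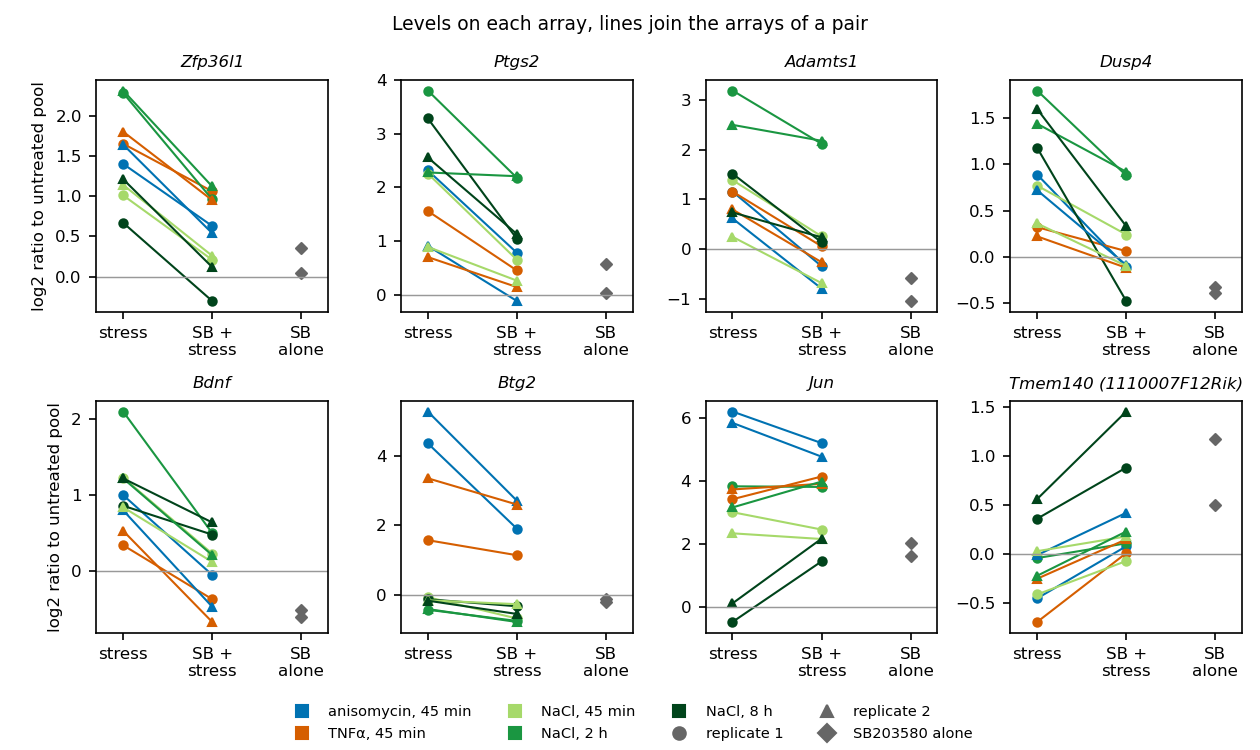
Log2 ratio to the untreated pool (y axis) on each array for 8 genes, with lines joining the arrays of a pair and diamonds for SB203580 alone. All lines of Zfp36l1, Ptgs2, Adamts1, Dusp4, Bdnf and Btg2 go down and all lines of Tmem140 go up, while those of Jun go down with anisomycin and up with NaCl at 8 h.

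Of the genes that passed, Ptgs2 and Edn1 had the largest mean decreases. Ptgs2 encodes cyclooxygenase-2, the inducible enzyme of prostaglandin synthesis. Its log2 ratio ran from 0.70 to 3.81 with stress alone (median 2.27) and from -0.12 to 2.21 with SB203580 (median 0.72). The mean difference was -1.18 ± 0.64 (SD, n = 10 pairs, limma adjusted p = 0.0328), or 44% of the level with stress alone. The pairs of Ptgs2 lay far apart, with -2.26 in replicate 1 of NaCl at 8 h and -0.06 in replicate 2 of NaCl at 2 h, and its mean was -1.63 in replicate 1 and -0.74 in replicate 2. The difference between the replicate numbers had an unadjusted p of 0.0058 and did not pass adjustment in limma (adjusted p = 1). Edn1 encodes the precursor of endothelin-1, a peptide that contracts blood vessels. Its level ran from 1.07 to 2.69 with stress alone (median 1.91) and from -0.78 to 2.27 with SB203580 (median 0.95). The mean difference of Edn1 was -1.05 ± 0.56 (SD, n = 10 pairs, limma adjusted p = 0.0328), with -1.74 for anisomycin and -0.50 for NaCl at 2 h.

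Ccl20, a chemokine that attracts lymphocytes and dendritic cells, ran from 0.79 to 7.18 with stress alone (median 1.68) and from 0.06 to 6.21 with SB203580 (median 0.78). The mean difference of Ccl20 was -1.01 ± 0.60 (SD, n = 10 pairs, limma adjusted p = 0.0478). Its levels were highest with TNFα in both groups. By stress the difference was -1.41 for TNFα, -1.61 for NaCl at 8 h and -0.26 for NaCl at 45 min. Bdnf, a neurotrophin, ran from 0.34 to 2.10 with stress alone (median 0.93) and from -0.67 to 0.64 with SB203580 (median 0.17). Its mean difference was -0.95 ± 0.36 (SD, n = 10 pairs, limma adjusted p = 0.00449), and it was -0.95 in replicate 1 and -0.96 in replicate 2.

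Adamts1, a secreted metalloproteinase that cleaves proteoglycans, ran from 0.25 to 3.19 with stress alone (median 1.16) and from -0.79 to 2.18 with SB203580 (median 0.10). Its mean difference was -1.04 ± 0.38 (SD, n = 10 pairs, limma adjusted p = 0.00432), or 48.6% of the level with stress alone, and its 2 highest levels in either group were those with NaCl at 2 h. Hs3st1, a sulfotransferase of heparan sulfate, ran from 0.60 to 3.42 with stress alone (median 1.38) and from 0.15 to 2.39 with SB203580 (median 0.42). Its 10 pairs gave a mean difference of -0.86 ± 0.43 (SD, n = 10 pairs, limma adjusted p = 0.0292).

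Dusp4 encodes a nuclear phosphatase that removes phosphate from MAP kinases. Its level ran from 0.22 to 1.80 with stress alone (median 0.83) and from -0.48 to 0.92 with SB203580 (median -0.02), so that the median returned to that of the untreated pool. The mean difference of Dusp4 was -0.78 ± 0.44 (SD, n = 10 pairs, limma adjusted p = 0.0408), from -0.30 with TNFα to -1.46 with NaCl at 8 h. Its call was lost when any 1 of the 10 pairs was left out, as was the case for 9530076L18 and LOC271022. Ccl20, Myc, Mycn, Stard4, 2810474O19Rik and 2310061J03Rik kept their calls in 1 of these 10 settings, and Ptgs2, Nfkbiz and Tmem140 in 2. Trib1, a pseudokinase that brings proteins to a ubiquitin ligase, ran from -0.03 to 2.00 with stress alone (median 0.86) and from -0.80 to 1.16 with SB203580 (median 0.27). It had a mean difference of -0.76 ± 0.36 (SD, n = 10 pairs, limma adjusted p = 0.0227), with -0.97 in replicate 1 and -0.55 in replicate 2. Nfkbiz encodes the nuclear protein IκBζ, which partners NF-κB at secondary response genes. It ran from 0.67 to 3.40 with stress alone (median 1.30) and from 0.02 to 2.91 with SB203580 (median 0.44), with a mean difference of -0.73 ± 0.34 (SD, n = 9 pairs, limma adjusted p = 0.0328).

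Myc, the growth regulator, ran from 0.87 to 3.33 with stress alone (median 1.99) and from 0.34 to 2.58 with SB203580 (median 1.1). Its mean difference was -0.73 ± 0.40 (SD, n = 10 pairs, limma adjusted p = 0.0384), with -0.97 in replicate 1 and -0.48 in replicate 2. Mycn, named Nmyc1 on the array, ran from -0.03 to 1.95 with stress alone (median 1.01) and from -0.41 to 0.98 with SB203580 (median -0.06). Its mean difference was -0.73 ± 0.36 (SD, n = 9 pairs, limma adjusted p = 0.0346). By stress Myc differed by -1.22 with anisomycin and -0.47 with NaCl at 8 h, and Mycn by -0.60 in the 1 anisomycin pair measured and by -1.07 with NaCl at 8 h, a contrast that was not tested. Foxa2, a forkhead factor best known from liver and endoderm, was chosen for naming after its values were seen, as were Trarg1, LOC271022 and 2810474O19Rik. It ran from 0.72 to 1.90 with stress alone (median 0.95) and from 0.09 to 0.83 with SB203580 (median 0.39), so that the groups overlapped only between 0.72 and 0.83. The mean difference of Foxa2 was -0.69 ± 0.26 (SD, n = 10 pairs, limma adjusted p = 0.00449), and the stress means lay between -0.85 (NaCl 2 h) and -0.53 (NaCl 45 min).

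The remaining lower genes changed less or have no assigned function here. Stard4, which carries cholesterol between membranes, had a mean difference of -0.28 ± 0.12 (SD, n = 10 pairs, limma adjusted p = 0.0355), and its median level lay below the pool both with stress alone (-0.20) and with SB203580 (-0.37). Trarg1 (Tusc5 on the array), a membrane protein tied to glucose transporter traffic, had a mean of -0.41 and stayed below the pool on all 20 arrays, but with normexp background correction its mean was -0.15 and its call was lost (limma adjusted p = 0.109). The unnamed transcripts 9530076L18, LOC271022 and 2810474O19Rik had means of -0.95, -0.46 and -0.45, and with normexp that of 9530076L18 was -0.41. Trarg1 and 9530076L18 were well above background on 8 of the 10 SB203580 arrays, and the other 17 genes on all 20 arrays. The stress-alone median lay above the pool for 16 of the 19 lower genes and the SB203580 median for 13. In 0 of the 19 genes did the levels of the groups separate fully. These counts were not made over all genes tested, so they only describe the 19.

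The 2 higher genes rose in 10 of 10 pairs. Tmem140, a transmembrane protein named 1110007F12Rik on the array, ran from -0.69 to 0.56 with stress alone (median -0.13) and from -0.07 to 1.45 with SB203580 (median 0.16). Its mean difference was 0.46 ± 0.23 (SD, n = 10 pairs, limma adjusted p = 0.0328), or 137% of the level with stress alone, with 0.45 in replicate 1 and 0.46 in replicate 2. The unnamed transcript 2310061J03Rik had a mean difference of 0.26 ± 0.11 (SD, n = 10 pairs, limma adjusted p = 0.0478).

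The stress with the largest fall was not the same for all the lower genes. Of the 19 genes, 7 fell most with NaCl at 2 h, 6 with NaCl at 8 h, 6 with anisomycin, and 0 with TNFα or NaCl at 45 min. The same count was not made over all genes tested. Over all genes tested, the SD of the differences was lowest with TNFα (0.27 and 0.26 in replicates 1 and 2). It was highest, at 0.34, in both pairs of NaCl at 2 h and in replicate 2 of NaCl at 8 h. With NaCl at 2 h the median over the 19 genes was -0.96 in replicate 1 and -0.51 in replicate 2. The median over the 19 genes in a pair lay between -0.99 (anisomycin, replicate 1) and -0.47 (NaCl 45 min, replicate 2), a description only, since the genes were chosen on these pairs. A test of whether the difference varied between the 5 stresses passed for 0 of 14608 genes in limma, with 1019 at an unadjusted p under 0.05 (6.98%) and a smallest adjusted p of 0.0655. For Dusp4 this test gave an unadjusted p of 0.00247. A test of whether the difference varied between the replicate numbers also passed for 0 of 14771 genes in limma, with 552 at an unadjusted p under 0.05 (3.74%).

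Btg2 and Jun show what a mean over all pairs leaves out. Btg2, an antiproliferative gene, was lower in 10 of 10 pairs with a mean difference of -0.81 ± 0.91 (SD, n = 10 pairs), and it did not pass (limma, adjusted p = 0.3). Both anisomycin pairs were far below the others, at -2.44 and -2.55, where the level with stress alone was 4.35 and 5.26, and the other 8 pairs lay between -0.75 and -0.11. Jun, a subunit of AP-1, had a mean difference of 0.29 ± 1.09 (SD, n = 10 pairs, limma adjusted p = 0.757) and was lower in 5 of 10 pairs. With anisomycin Jun differed by -1.0 and -1.07 from levels of 6.21 and 5.85, and with NaCl at 8 h by 1.92 and 2.05 from levels of -0.46 and 0.13. On the 2 arrays of SB203580 without stress, Jun lay at 2.05 and 1.64 and Btg2 at -0.18 and -0.09. Whether the rise of Jun with NaCl at 8 h needs the stress was not tested. The test between stresses gave an unadjusted p of 1.42e-05 for Btg2 and 7.92e-05 for Jun, and neither passed adjustment (limma, adjusted p = 0.104 and 0.235). Btg2 did pass it in limma under 6 other settings, with normexp background correction among them (adjusted p = 0.00181), and Jun under 2, with normexp (adjusted p = 0.024) and with spots well above background (adjusted p = 0.0115).

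SB203580 without stress was measured on 2 arrays, and the 19 lower genes did not share a direction there. On both arrays 9 of the 19 lay below the pool and 8 above it, where 30.4% and 36.7% of 13804 genes did. Adamts1 (-1.04 and -0.58), Bdnf (-0.61 and -0.51), Edn1 (-0.54 and -0.44) and Dusp4 (-0.39 and -0.33) lay below the pool. Ptgs2 (0.58 and 0.02), Zfp36l1 (0.36 and 0.05) and Ccl20 (0.72 and 0.26) lay above it. Both higher genes lay above the pool with SB203580 alone, Tmem140 at 1.17 and 0.50 and 2310061J03Rik at 0.81 and 0.73. Of named genes that did not pass, Fos (2.40 and 2.25) and Jun (2.05 and 1.64) lay far above the pool. Akr1b3 (-0.69 and -0.79) and Btg2 (-0.18 and -0.09) lay below it. The 2 arrays of untreated p38α-/- MEFs were scanned in different batches, replicate 1 with the second replicates of the wild type. On them, 5 of the 18 lower genes measured on both arrays lay below the pool and 6 above it, against 31% and 35.7% of 14352 genes. The higher genes lay above it there too, Tmem140 at 0.50 and 0.53 and 2310061J03Rik at 0.40 and 0.46.

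Of 20 gene lists, the immediate early transcription factors had the lowest median difference, -0.38 over 16 members tested, against 0.014 over all genes tested. The list has 27 genes on the array, and those measured in too few pairs do not enter the median. Counts of list members stand beside shares over all genes tested of 0.129% lower at an adjusted p under 0.05, and of 4.38% lower and 6.76% higher at an unadjusted p under 0.05. Of these 16 members, 2 were lower at an adjusted p under 0.05 (Myc and Mycn), 9 were lower at an unadjusted p under 0.05 and 1, Klf2, was higher (0.31, 9 of 10 pairs higher, limma adjusted p = 0.141). Egr1 had a mean of -0.87 ± 0.96 (SD, n = 7 pairs), Klf4 of -0.53 ± 0.53 (SD, n = 10 pairs) and Fos of -0.43 ± 0.40 (SD, n = 9 pairs), and none of them passed (limma, adjusted p = 0.368, 0.244 and 0.244). Among 21 inflammatory mediators, 2 passed as lower, Ptgs2 and Ccl20, and 9 were lower at an unadjusted p under 0.05, with a median of -0.13. Csf1, the macrophage growth factor, was lower in 10 of 10 pairs (-0.45 ± 0.29, SD, limma adjusted p = 0.0981). Il6, Ptges and Il1b had means of -0.02, -0.02 and 0.00, but they were hardly raised by stress alone. Their median levels with stress alone were -0.20, 0.08 and 0.11, and their highest were 0.03, 0.30 and 0.36. Among 13 genes known as outputs of the ERK pathway, 2 passed as lower, Dusp4 and Myc, and 6 were lower at an unadjusted p under 0.05. The ERK feedback gene Spry4 (-0.66 ± 0.44, SD, n = 10 pairs) and the receptor Epha2 (-0.63 ± 0.50, SD, n = 10 pairs) were lower in 9 of 10 pairs each (limma, adjusted p = 0.103 and 0.173).

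**Figure D4:**
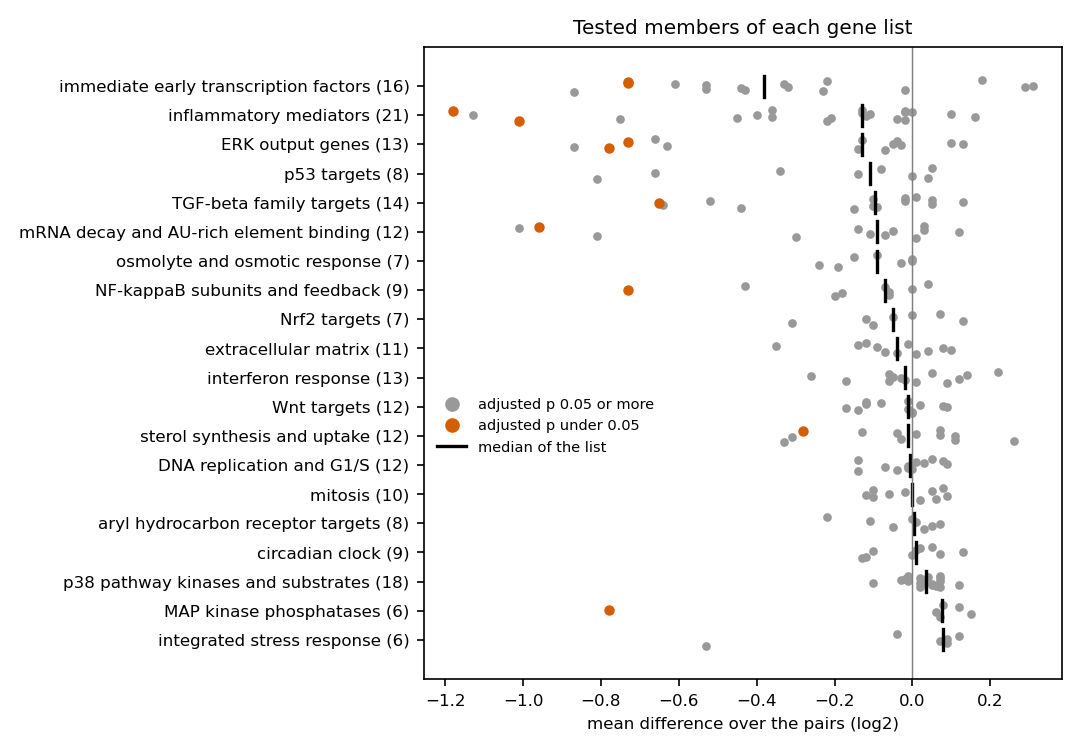
Mean difference over the pairs (x axis, log2) of each tested member of 20 gene lists, with the number tested in brackets, orange for members at an adjusted p under 0.05 and a black bar for the median of the list. The immediate early transcription factors have the lowest median (-0.38; Myc and Mycn overlap at -0.73), and the 18 p38 pathway members lie between -0.10 and 0.12.

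The other lists held at most 1 gene that passed. Among those that did were Zfp36l1 of 12 mRNA decay factors, Dusp4 of 6 MAP kinase phosphatases, Nfkbiz of 9 NF-κB genes and Stard4 of 12 sterol genes. Tnfaip3, which encodes the NF-κB inhibitor A20, was lower in 8 of 9 pairs without passing (-0.43 ± 0.34, SD, limma adjusted p = 0.21). Of 18 kinases and substrates of the p38 pathway tested by limma, 0 passed and 0 had an unadjusted p under 0.05, and their means lay between -0.10 (Map3k7ip2) and 0.12 (Map2k6), with -0.01 for Mapkapk2, which encodes MK2. Mapk14, the gene of p38α, was measured in the 5 first-replicate pairs alone and was not tested, with differences of 0.14, 0.05, 0.27, -0.17 and -0.20. Of 7 osmolyte and osmotic response genes, 0 passed in limma and 2 were lower at an unadjusted p under 0.05. The osmotic regulator Nfat5 had a mean of 0.00 ± 0.10 (SD, n = 10 pairs), and the chaperone gene Hspa4l of -0.03 ± 0.16 (SD, n = 8 pairs). With stress alone, Hspa4l had a median level of 0.26 and its highest level, 2.39, with NaCl at 8 h. Only 1 pair of that stress was measured for Hspa4l, with a difference of -0.28. Akr1b3, the aldose reductase that makes sorbitol, had a mean of -0.19 ± 0.69 (SD, n = 10 pairs, limma adjusted p = 0.742). By stress the difference of Akr1b3 was 0.44 for anisomycin, -0.94 for NaCl at 2 h and -0.61 for NaCl at 8 h. With stress alone, Akr1b3 lay above the pool on 1 of 10 arrays, which was of NaCl at 8 h. For Akr1b3 and Hspa4l the mean over all pairs therefore says little about the stress that raised them. In the other 10 lists 0 genes passed in limma. Of 8 p53 targets 3 were lower at an unadjusted p under 0.05, among them Btg2 and the kinase Plk3 (-0.66 ± 0.60, SD, n = 10 pairs, limma adjusted p = 0.225). Of 8 targets of the aryl hydrocarbon receptor, the factor that binds GCGTG, 1 was lower at an unadjusted p under 0.05 and the median was 0.00. The clock genes had 2 lower and 1 higher of 9, the interferon response 2 higher of 13, and the integrated stress response and the extracellular matrix 1 lower each of 6 and 11. Among the Nrf2 targets, Wnt targets, DNA replication genes and mitotic genes, 0 reached an unadjusted p under 0.05. Over all genes tested the shares were 4.38% lower and 6.76% higher. Counts of 1 or 2 in lists of this size rest on few genes and were not tested against these shares.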

How the data were processed

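Total RNA was measured on 2-colour Agilent arrays that the authors scanned and extracted with Agilent Feature Extraction (9.1 per the submitters' processing notes, 8.1.1.1 in the file headers). Before they were deposited, the log10 ratios of Cy5 to Cy3 had been normalized by linear and LOWESS steps, with surrogates for dim signals and no local background subtraction. The deposited intensity columns gave signal levels, with medians in Cy5 of 967 to 1870 per array. The authors also deposited a table of values on the log2 scale with column medians of -0.06 to 0.03, a scale judged from its values. The number of arrays limits the precision.

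Control spots and outlier spots were left out, and ratios were turned to log2. The 33453 probes with a gene name covered 21689 genes. Differences were taken per probe within a pair and averaged over a gene's probes. A gene was tested if measured in at least 7 pairs, with at least 3 of each replicate number, which left out 6918 genes. limma 3.58.1 (R 4.3.3) tested the mean of the pair differences against 0, two-sided, with Benjamini-Hochberg adjustment over all genes tested. Differences between stresses and between replicate numbers were tested in the same differences. Of 19 lower genes, 10 rested on 1 probe. Python 3.11.15, numpy 2.4.6, pandas 2.3.3 and matplotlib 3.10.9 did the rest, and the fit was tested on simulated data.

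Arrays were paired by replicate number. The difference of replicate 1 and 2 correlated above 0.1 between groups in 45 of 45 pairs of groups (0.16 to 0.65, median 0.46). For the 2 groups of each stress it was 0.27 to 0.61 (median 0.53). The numbers follow the scanning batches of the wild type arrays, so these correlations cannot tell a shared experiment from a shared batch. The limma test took the 10 pairs as independent, although pairs of 1 replicate number shared a batch. The pair differences correlated at -0.10 to 0.19 within replicate 1 (median 0.10) and -0.05 to 0.11 within replicate 2 (median 0.04). Between the 2 pairs of a stress they correlated at -0.02 to 0.30 (median 0.12). Named were the 10 largest changes in each direction among genes that passed with 1 sign in every pair, in at least 8 pairs, well above background on at least 50% of the arrays of one side. Up to 4 passing members per list were added, and Mapk14, Tnfaip3, Ptgs2, Btg2, Jun, Mycn, Fos, Dusp4, Zfp36, Akr1b3 and Hspa4l whatever their value. Other list members are examples. Members, lists and tests were chosen with earlier results of these data known. Of 368 listed symbols, 363 were matched. Newer symbols came from RefSeq, in which 15880 of 16828 mRNA accessions were found. Alternatives were other background corrections, the authors' log2 table, spot and probe filters, centring, other models of pairing, and pairs left out. The result for 1 gene that passed is not reported here.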

Additional observations from a re-analysis of the deposited data

Results flagged for a closer look

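In 2 of the 29 named genes, both pairs of some stresses moved one way and both pairs of others the opposite way. Jun had a mean difference of 1.99 with NaCl at 8 h, against -1.04 with anisomycin. The test of the difference between stresses did not pass for Jun (limma, adjusted p = 0.235). Akr1b3 had a mean difference of 0.44 with anisomycin, against -0.94 with NaCl at 2 h, and the same test gave an unadjusted p of 0.0989. In the 29 genes, 0 had a single pair set apart from its nearest neighbour by more than the 95% limit of Dixon's gap test, which cannot see 2 far pairs that lie together, such as the anisomycin pairs of Btg2 at -2.44 and -2.55.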

How the results depend on the processing

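All genes that passed kept the sign of their mean in each of 32 settings in which they were tested, while the number that passed did not hold. Where a setting only left out or averaged pairs, no other sign was possible, because these genes had 1 sign in every pair measured. Against 19 lower and 2 higher genes, 31 and 6 passed with normexp background correction and 36 and 6 with the authors' log2 table. With the stress pairs averaged, 0 and 0 passed. Without the pairs of anisomycin 1 gene was lower and 0 higher, without TNFα 2 and 0, without NaCl at 45 min 11 and 0, without NaCl at 2 h 11 and 6, and without NaCl at 8 h 3 and 0. Leaving out 1 replicate or pair gave 0 to 12 lower and 0 to 18 higher genes, with 0 lower genes where only 1 replicate number was left, 0 higher genes there and without 8 of the 10 single pairs, and 18 higher genes without replicate 1 of NaCl at 2 h. The higher genes numbered 5 with spots well above background and with a trended prior, and 1 with probes averaged on each array, centred arrays, genes measured in all 10 pairs, stress as a random block, a term for the replicate number, and genes with a difference of exactly 0 left out, a choice made after seeing the data. The difference between stresses passed for 16 genes with normexp, 8 with the authors' table, 4 with outlier spots kept, 5 with spots well above background, 2 with a trended prior, 2 without genes with a difference of exactly 0, and 0 to 2 with 1 pair left out. The difference between replicate numbers passed for 0 to 1 genes with 1 pair left out. With a replicate block in an additive fit 16 lower and 2 higher genes passed, and with no replicate block 10 and 0. The sign changed for Jun (-0.14 without the NaCl pairs at 8 h) and Hspa4l (0.05 with probes averaged on each array, 0.01 without the NaCl pairs at 8 h, and -0.06 to 0.01 with 1 pair left out), neither of which passed. With normexp the mean of 9530076L18 moved to -0.41 and that of Trarg1 (Tusc5) to -0.15 (limma, adjusted p = 0.109). The cause of these shifts was not tested.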

Other observations

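Other genes moved one way in 10 of 10 pairs without passing the test. Those given here were chosen after their values were seen and are of several kinds. Inhba, a subunit of activin, had a mean difference of -0.64 ± 0.45 (SD, n = 10 pairs, limma adjusted p = 0.141), and the scaffold Nedd9 had -0.43 ± 0.29 (SD, n = 10 pairs, limma adjusted p = 0.141). The topoisomerase Top1 had -0.37 ± 0.27 (SD, n = 10 pairs, limma adjusted p = 0.17). The chaperone partner Dnajb9 and the cyclin Ccnl1 had -0.36 each (limma adjusted p = 0.173 and 0.141). Thbs1, the matrix protein thrombospondin, had -0.35 ± 0.26 (SD, n = 10 pairs, limma adjusted p = 0.173), and Adamts5, a protease of the same family as Adamts1, had -0.35 ± 0.19 (SD, n = 10 pairs, limma adjusted p = 0.0695). Csrnp2, named BC035295 on the array, was higher in 10 of 10 pairs, with 0.31 ± 0.16 (SD, limma adjusted p = 0.0627), as was Meig1, with 0.41 ± 0.31 (SD, limma adjusted p = 0.173).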
